A study of Mus musculus with 11 samples.

Results

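This account is about 886 nuclei that were picked out of single-nucleus RNA-sequencing libraries of mouse hindbrain and cervical cord with a rule written for Golgi cells of the cerebellum. The rule took barcodes with at least 1000 genes and under 5% mitochondrial UMIs (unique molecular identifiers, each standing for 1 captured RNA molecule). It then required at least 2 UMIs of Lgi2, 1 or more UMIs of Grm2, Slc6a5 or Gjd2, and 1 or more of Gad1 or Gad2. It allowed at most 1 UMI of Slc17a6 and 1 of Mog and Mag together, and under 0.2% of UMIs from the granule cell genes Gabra6, Fat2, Chn2 and Etv1. Of 189709 deposited barcodes, 157612 passed the first limits, and 886 of those met the whole rule.

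Golgi cells are the large inhibitory interneurons of the granular layer of the cerebellum. They release GABA and, in many cells, glycine onto granule cells, take up glycine through GlyT2 (encoded by Slc6a5), carry the metabotropic glutamate receptor mGluR2 (Grm2) and are coupled to each other by connexin 36 (Gjd2). Lgi2 encodes a secreted protein that binds synaptic receptors of the ADAM family. Glycinergic inhibitory neurons also occur throughout the brainstem and spinal cord. Neurons born there keep expressing Hox genes, which are off in the most anterior hindbrain, where the cerebellum arises.

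The study asked what interleukin-12 sensing by neuroectodermal cells does in experimental autoimmune encephalomyelitis (EAE), a mouse model of multiple sclerosis. All mice were males of 8 to 12 weeks with both Il12rb2 alleles floxed (Il12rb2fl/fl). Il12rb2 encodes 1 chain of the interleukin-12 receptor. Mice of 1 arm also carried the NestinCre/+ transgene, a Cre driven by Nestin regulatory sequences that acts in the precursors of neurons and macroglia. EAE mice were immunized with a myelin oligodendrocyte glycoprotein peptide in complete Freund's adjuvant plus pertussis toxin and taken on day 10, and naive mice were not immunized. There were 4 Il12rb2fl/fl EAE samples (here fl EAE), 4 NestinCre/+Il12rb2fl/fl EAE samples (NestinCre EAE), 2 fl naive samples and 1 NestinCre naive sample, each made from the cerebellum and brainstem of 1 hemisphere plus upper cervical cord. Nuclei were sorted on Hoechst dye alone, with no gate against doublets. Per the labels, the EAE samples numbered 1 to 3 of both genotypes were in sequencing run 1, both EAE samples numbered 4 and fl naive 2 in run 2, and fl naive 3 and NestinCre naive 2 in run 3. The number 4 was given here to the EAE sample of each genotype whose title has no number.

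Total depth was 40761007 to 86063464 UMIs per sample, and 10155 to 18969 barcodes per sample passed the limits. The selected nuclei were deep. They held a median of 13319.5 UMIs (2915 to 105000) and 4527 genes (1438 to 9648), against a median of 2743 UMIs over all passing barcodes. Summed over a sample, they gave 688704 to 2853259 UMIs, and all levels below are UMIs of a gene per 1000000 UMIs of that sum (CPM). A count of 3 UMIs corresponds to 1.05 to 4.36 CPM depending on the sample. Of 185366 distinct barcode sequences, 4288 occurred in more than 1 library, and none was shared between selected nuclei of different libraries. A doublet caller (Scrublet) put 23 of the 886 nuclei (2.60%) in the top share it was asked to mark, against 15.96% of all passing barcodes.

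The genes used to choose the nuclei were unevenly present. Slc6a5 (chromosome 7, 49559894 to 49613604, GRCm39) had a UMI in 811 nuclei (91.5%), Grm2 (chromosome 9, 106520294 to 106533870) in 220 (24.8%) and Gjd2 (chromosome 2, 113840079 to 113844574) in 123 (13.9%). Slc6a5 was the only one of these 3 genes with a UMI in 579 nuclei (65.4%). All 3 were seen in 27 nuclei. Lgi2 (chromosome 5, 52690631 to 52723804) was required of every nucleus, at 256.6 to 377.6 CPM across the 11 samples.

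The label of the set did not hold for a large part of it. At least 1 UMI of the 20 Hox genes listed was found in 439 of the 886 nuclei (49.5%, 95% exact binomial interval 46.2 to 52.9%), and 351 (39.6%) had 2 or more. Nuclei with a Grm2 UMI carried one in 28 of 220 cases (12.7%), those without Grm2 in 411 of 666 (61.7%), and those that met the rule through Slc6a5 alone in 378 of 579 (65.3%). In granule-gene-rich nuclei, which arise in the cerebellum and should lack these genes, the share was 5.97% at a median of 2538 UMIs, and in nuclei with molecular layer interneuron markers it was 8.24% at 4492 UMIs. Nuclei of at least 2900 UMIs were then thinned to 2900 UMIs. This left out 61336 of 97845 granule-gene-rich and 773 of 4432 molecular layer interneuron-like (MLI-like) nuclei. It also left out 10 of 1208 other nuclei with 2 or more Slc6a5 UMIs but no Lgi2, which met the rule's limits on Slc17a6, Mog, Mag and granule cell genes. Hox UMIs remained in 27.8% of the selected nuclei, all 886 of which were kept. Of the kept nuclei in the other sets, they remained in 5.08% of the granule-gene-rich, 5.44% of the MLI-like and 40.3% of those with Slc6a5 but no Lgi2. The set is therefore called Lgi2-selected nuclei here. It is described in 3 classes that were drawn after these values were seen: 192 nuclei with Grm2 and no Hox UMI, 439 with a Hox UMI, and 255 with neither.

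The limits of the rule did not fall in a gap. Of 318 nuclei just inside, with 2 Lgi2 UMIs, 62.3% had a Hox UMI and 8.49% had Grm2. Of 772 nuclei just outside, with 1 Lgi2 UMI and all else met, 63.0% had a Hox UMI and 3.89% had Grm2. The 568 nuclei with 3 or more Lgi2 UMIs differed from both, with Hox in 42.4% and Grm2 in 34.0%. The limit on granule cell genes decided little, since 4 nuclei lay just inside it (0.15 to 0.2%) and 2 just outside (0.2 to 0.25%).

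**Figure D1:**
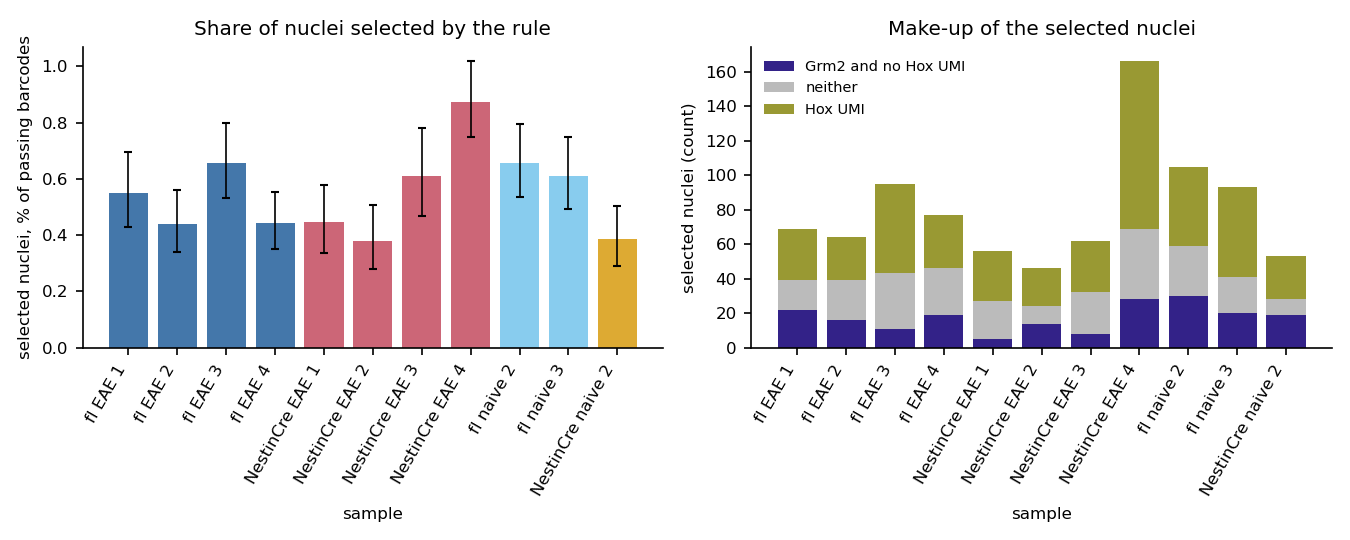
Left, nuclei selected by the rule as a percent of passing barcodes in each of the 11 samples, with 95% exact binomial intervals (counting error only); bars are coloured by group (blue fl EAE, red NestinCre EAE, light blue fl naive, yellow NestinCre naive). Right, the number of selected nuclei per sample split into the 3 classes. NestinCre EAE 4 stands highest in both panels, at 0.875% and 166 nuclei, and every sample holds all 3 classes.

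The identity of these nuclei is given as a description with no test, because the nuclei were chosen by their genes. Of 3934 genes at 50 CPM or more in the Lgi2-selected nuclei, 1157 were higher than in all other passing nuclei in each of the 11 samples. Kcnn3, which encodes the small-conductance calcium-activated potassium channel SK3, led these with 199.6 against 14.3 CPM, a ratio of 13.9, and ran from 89.98 to 270.0 CPM over samples (lowest in fl EAE 3). Pax2, a transcription factor of inhibitory interneuron precursors, came next at 237.3 against 19.4 CPM. The collagen gene Col23a1 (76.7 CPM, 11.3-fold), the ethanolamine kinase Etnk2 (50.5 CPM, 11.2-fold), the AMPA receptor auxiliary subunit Cacng3 (216.1 CPM, 10.6-fold) and the laminin chain Lama1 (87.6 CPM, 9.91-fold) followed. Apart from the selecting genes Lgi2 and Slc6a5, the rest of the leading 20 were Pdgfd, a growth factor (6.59-fold), Adamts3, Elavl2, Rgs6, Zfp385c, Bmper, Wwc1, Zmat4, Rbm20, Gucy1a1, Sgcd and Gpc5 (5.10-fold).

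Against 4432 MLI-like nuclei, the other inhibitory interneurons of the cerebellar cortex, Lama1 was 38.5-fold higher, Pdgfd 25.0-fold, Col23a1 21.6-fold, Kcnn3 20.5-fold, Wwc1 13.9-fold, Etnk2 13.1-fold, Rgs6 12.4-fold and the synaptic vesicle gene Sv2c 12.2-fold. Against 1208 other glycinergic nuclei (Slc6a5 without Lgi2) far fewer genes stood out, 249 of 3934 in every sample. Pdgfd led these at 11.7-fold, before Col23a1 (10.9-fold), Zfp385c (9.20-fold), Kcnn3 (7.08-fold), the proteoglycan Vcan (5.77-fold) and the transcription factor Tfap2b (5.66-fold).

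Most of these leading genes were unequally spread over the classes. Kcnn3 stood at 700.8 CPM in the Grm2-without-Hox nuclei, 293.5 CPM in the nuclei with neither and 34.2 CPM in the Hox nuclei, where the other glycinergic nuclei had 28.2 CPM. Its lowest sample value in the Grm2-without-Hox nuclei (483.7 CPM) was above its highest in the Hox nuclei (85.6 CPM). In thinned nuclei a Kcnn3 UMI was seen in 78.7% of the Grm2-without-Hox nuclei, 46.3% of those with neither, 7.29% of the Hox nuclei, 7.35% of other glycinergic nuclei and 0.345% of granule-gene-rich nuclei. Tfap2b, a transcription factor of cerebellar inhibitory neurons, followed the same order with 353.5, 188.5 and 27.6 CPM, and MLI-like nuclei had 234.4 CPM. Pdgfd (308.2, 120.0 and 16.4 CPM), Col23a1 (249.0, 122.3 and 14.7 CPM) and Scrg1 (142.2, 48.8 and 6.36 CPM) did so too. Pax2 was less uneven, at 463.4, 262.6 and 169.2 CPM.

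The Hox nuclei carried another set of genes. Slit2, which encodes a repulsive axon guidance ligand, stood at 433.7 CPM in the Hox nuclei, 207.3 CPM in those with neither and 6.28 CPM in the Grm2-without-Hox nuclei, and at 413.2 CPM in other glycinergic nuclei. Glra1, the adult glycine receptor alpha subunit, stood at 302.5, 127.1 and 8.07 CPM in the same order. Kcnc2, a fast potassium channel, stood at 389.8, 213.9 and 10.3 CPM. Other genes over 30-fold higher in the Hox nuclei than in the Grm2-without-Hox nuclei, and higher in all 11 samples, included Nrp1, Cdh9, Bcl11a, Htr7, Htr4, Pcdh19, Rhbdl3 and Sv2c. Between these classes, 383 of 3786 genes at 50 CPM or more were higher in the Grm2-without-Hox nuclei in every sample, and 557 of 3918 were higher in the Hox nuclei. The nuclei with neither sat between the other classes for every gene named in this paragraph and the one before it for which values are given. The Hox nuclei were deeper, with a median of 16970 UMIs against 10745 in the Grm2-without-Hox nuclei and 10961 in those with neither, so a Hox UMI was also easier to see in a deep nucleus.

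**Figure D2:**
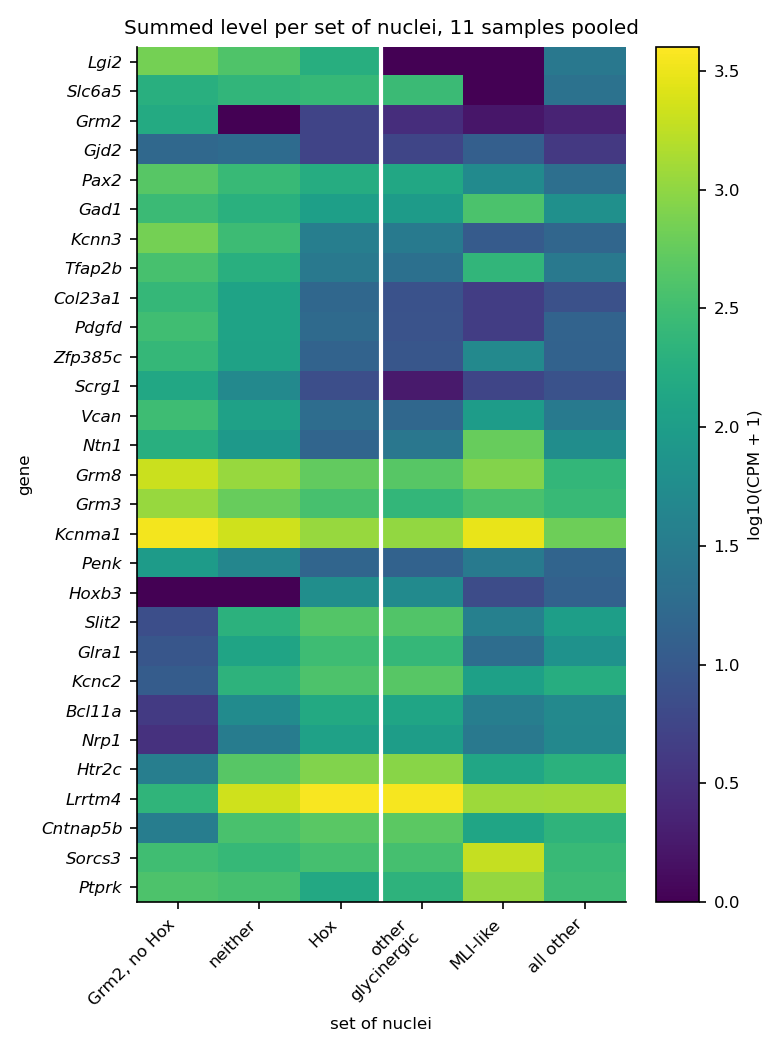
Heat map of log10(CPM + 1) for 29 genes (rows) in 6 sets of nuclei (columns), with the 11 samples pooled; the white line divides the 3 classes of Lgi2-selected nuclei from other glycinergic, MLI-like and all other nuclei. Among the 3 classes the rows from Kcnn3 to Penk are brightest in the Grm2-without-Hox nuclei. Slit2, Glra1, Kcnc2, Bcl11a, Nrp1, Htr2c, Lrrtm4 and Cntnap5b have nearly the same shade in the Hox nuclei as in other glycinergic nuclei. Lgi2, Slc6a5, Grm2, Gjd2, Gad1, Sorcs3 and Hoxb3 were used to define sets.

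For transmitter handling, 8 of the 9 genes listed reached 10 CPM in the Lgi2-selected nuclei, and 4 of them were higher than in all other nuclei in every sample. Of these 4, Gad1, Gad2 and Slc6a5 were used by the selection, which leaves Abat, the enzyme that breaks down GABA (196.5 CPM). As a background, 1798 of 9700 genes at 10 CPM or more were higher than in all other nuclei in every sample and 2334 were lower. Between the classes, 429 of all genes were higher in the Grm2-without-Hox nuclei in every sample and 796 in the Hox nuclei. Gad1 and Gad2, which make GABA, stood at 152.6 and 163.5 CPM over the whole set, and at 281.7 and 220.3 CPM in the Grm2-without-Hox nuclei. Slc6a5 stood at 185.3 CPM in the Grm2-without-Hox and 260.3 CPM in the Hox nuclei, an order that the selection favours, since nuclei with Grm2 could enter without Slc6a5.

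All 7 metabotropic glutamate receptor genes listed reached 10 CPM, and 5 were higher than in all other nuclei in every sample, Grm2 among them, which the selection used. In the Grm2-without-Hox nuclei Grm8 stood at 2048 CPM and Grm3 at 1106 CPM, against 535.9 and 352.5 CPM in the Hox nuclei. Grm5, a group I receptor, was reversed, with 658.6 CPM against 1499 CPM. Of the 17 ionotropic glutamate receptor genes, Grik3 was 648.3 CPM in the Grm2-without-Hox and 126.3 CPM in the Hox nuclei, while Grik4 (12.6 and 234.5 CPM), Grin3a (32.3 and 215.5 CPM) and Gria1 (40.4 and 358.7 CPM) were lower in the former in all 11 samples. Among 16 GABA-A and glycine receptor genes, Gabrg3 was the only one higher in the Grm2-without-Hox than in the Hox nuclei in every sample (1074 and 549.5 CPM), and 5 were lower in every sample, Gabra5 (16.6 and 94.8 CPM) and Glra1 among them.

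Of the 31 pacemaker and firing channel genes, 28 reached 10 CPM, and 12 were higher than in all other nuclei in every sample while 8 were lower. Between the classes, 10 were higher in the Grm2-without-Hox nuclei in every sample and 9 in the Hox nuclei. Kcnma1, the large-conductance calcium-activated potassium channel, stood at 3411 CPM in the Grm2-without-Hox nuclei and 1103 CPM in the Hox nuclei. The calcium channel genes parted, since Cacna1d was higher in the Grm2-without-Hox nuclei (1165 and 525.0 CPM) and Cacna1c in the Hox nuclei (138.2 and 762.9 CPM). Gap junction genes were scarce: Gjd2 itself stood at 9.28 CPM over the whole set, with 15.7, 17.4 and 4.51 CPM in the Grm2-without-Hox nuclei, those with neither and the Hox nuclei, and Panx2 alone of the 7 listed reached 10 CPM.

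Adhesion and modulator genes also separated the classes. The synaptic adhesion gene Lrrtm4 stood at 227.5 CPM in the Grm2-without-Hox nuclei, 2186 CPM in those with neither and 3718 CPM in the Hox nuclei. Cntnap5a (123.8, 876.8 and 1096 CPM) and Cntn4 (96.0, 881.9 and 1163 CPM) had the same order. The serotonin receptor Htr2c stood at 34.1, 468.7 and 823.5 CPM, and the muscarinic receptor Chrm2, which was higher than in all other nuclei in every sample, at 388.5, 338.3 and 344.1 CPM. Of the 16 neuromodulator receptor genes 10 reached 10 CPM, and 5 were higher in the Hox than in the Grm2-without-Hox nuclei in every sample. Penk, the enkephalin precursor, stood at 93.3 CPM in the Grm2-without-Hox and 13.8 CPM in the Hox nuclei. Dab1, an adaptor in reelin signalling, stood at 3675 and 1176 CPM.

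Markers of other cells were low in the set for some lists and not for others. Oligodendrocyte markers outside the rule summed to 117.1 to 258.0 CPM across the samples, against 1737 to 3376 CPM in all other nuclei, and granule cell markers outside the rule to 120.2 to 214.5 CPM against 795.7 to 1417 CPM. Microglia and phagocyte markers summed to 145.5 to 163.6 CPM in fl EAE, 141.2 to 247.3 CPM in NestinCre EAE and 163.3 to 203.5 CPM in naive samples. T cell markers summed to 9.84 to 35.5, 28.0 to 47.3 and 28.7 to 41.1 CPM in those groups, against 10.8 to 21.2 CPM in all other nuclei, mostly through Skap1 (8.74 to 38.8 CPM over the samples). Of Cd3e, which defines T cells, there was 1 UMI in NestinCre EAE 3 and 1 in NestinCre EAE 4. Purkinje cell markers summed to 148.8 to 238.6 CPM in the EAE samples and 196.5 to 1009 CPM in the naive ones, against 380.4 to 607.3 CPM in all other nuclei. Molecular layer interneuron markers summed to 1260 to 1838 CPM against 888.7 to 1338 CPM. The astrocyte list, which also summed to more in the set (1116 to 2428 CPM) than in all other nuclei (909.6 to 1233 CPM), was carried by Gpc5 at 1873 CPM, while Aqp4 had at most 8 UMIs in a sample.

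The first comparison between mice asked whether the share of these nuclei differed with genotype or disease. The Lgi2-selected nuclei made up 0.549, 0.441, 0.655 and 0.444% of passing barcodes in the fl EAE samples. In the NestinCre EAE samples the shares were 0.446, 0.381, 0.611 and 0.875%. They made up 0.656 and 0.612% in the fl naive samples and 0.386% in the NestinCre naive sample. The groups overlapped, and NestinCre EAE 4 lay above every other sample. The EAE genotypes differed by 0.056 percentage points (0.578% ± 0.220 in NestinCre EAE against 0.522% ± 0.102 in fl EAE, SD, n = 4 and 4, two-sided exact permutation test, p = 0.69, adjusted over 2 share tests 0.91), and without NestinCre EAE 4 the difference was -0.043. EAE and naive samples differed by -0.0013 percentage points (0.550% ± 0.162, n = 8, against 0.552% ± 0.145, n = 3, exact permutation test, p = 0.91), and the 2 EAE samples of run 2 lay on both sides of its naive sample. Fewer nuclei of a type and less RNA per nucleus cannot be told apart by such shares, since nuclei had to show 2 Lgi2 UMIs.

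Hox nuclei made up 43.5, 39.1, 54.7 and 40.3% of the selected nuclei in fl EAE and 51.8, 47.8, 48.4 and 58.4% in NestinCre EAE. They made up 43.8 and 55.9% in fl naive and 47.2% in NestinCre naive. The means of the EAE genotypes differed by 7.22 percentage points (51.6% ± 4.88 against 44.4% ± 7.15, SD, n = 4 and 4, exact permutation test, p = 0.14, adjusted over 2 tests 0.29), a difference that shrank to 1.14 points when every nucleus was thinned to 2900 UMIs. Grm2-without-Hox nuclei made up 31.9, 25.0, 11.6 and 24.7% in fl EAE, 8.93, 30.4, 12.9 and 16.9% in NestinCre EAE, and 28.6, 21.5 and 35.9% in the naive samples. NestinCre EAE 1 therefore held 5 such nuclei and NestinCre EAE 4 held 28. These proportions move with every sum over the set given below, and their part in those sums was not tested.

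The targeted gene was looked at first. Il12rb2 (chromosome 6, 67268302 to 67353172) stood at 26.2, 27.5, 13.9 and 13.3 CPM in fl EAE, at 18.2, 20.3, 10.2 and 14.7 CPM in NestinCre EAE, and at 10.3, 21.9 and 14.95 CPM in the naive samples. The groups overlapped, with a log2 difference of -0.25 (95% interval -0.81 to 0.31, edgeR quasi-likelihood test, adjusted p = 1). The counts come from 3' tags of the whole gene with introns included and cannot be restricted to the deleted part, so they do not check the deletion. Il12rb1, the other receptor chain, had 1 UMI in the whole set, in NestinCre EAE 4. Transcripts of Nes, whose regulatory sequences drive the transgene, had 0 UMIs in the 6 samples without Cre and 1, 1, 0, 2 and 1 UMIs in the 5 with it.

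The second comparison asked which genes differed with genotype in EAE. Of 9564 genes tested, 0 passed an adjusted p of 0.05 in edgeR (0%), with 359 at an unadjusted p under 0.05 (196 higher and 163 lower in NestinCre EAE) and 1 called by DESeq2.

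Groups that did not overlap were found for 118 genes higher in NestinCre EAE (1.23% of those tested) and 95 lower (0.993%). The list of 45 interferon-responsive genes had 6 members above the filter on low counts, of which 0 passed, 3 (Stat2 and H2-D1 among them) were higher at an unadjusted p under 0.05, and the median log2 difference was 0.56, against 0.0044 over all genes tested. Stat2, a transcription factor of the type I interferon response, stood at 32.8, 37.8, 19.9 and 28.3 CPM in fl EAE and 57.0, 52.3, 43.9 and 40.3 CPM in NestinCre EAE, which did not overlap (log2 difference 0.71 ± 0.19, adjusted p = 1). H2-D1, an MHC class I heavy chain, stood at 15.3, 27.5, 31.4 and 20.2 CPM in fl EAE and 58.2, 26.1, 31.6 and 44.5 CPM in NestinCre EAE, which overlapped (0.76 ± 0.25, adjusted p = 1).

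Most antigen presentation genes were below the filter. H2-K1, another class I heavy chain, stood at 1.09, 0, 1.81 and 0 CPM in fl EAE and at 30.3, 2.90, 4.08 and 14.4 CPM in NestinCre EAE. Beta-2-microglobulin (B2m), the light chain of those complexes, stood at 5.47, 5.72, 4.83 and 2.88 CPM in fl EAE and at 21.8, 7.26, 15.3 and 16.8 CPM in NestinCre EAE. Neither gene's groups overlapped, though the 2.90 CPM of H2-K1 in NestinCre EAE 2 were 2 UMIs and the NestinCre naive sample stood at 4.60 CPM. With every gene of at least 1 count kept, edgeR called 21 of 19537 genes, H2-K1 (log2 difference 3.93 ± 0.56 SE, adjusted p = 2.8e-08), B2m (1.79 ± 0.37, adjusted p = 0.0028), Nlrc5 (2.17 ± 0.50, adjusted p = 0.015) and the interferon-induced GTPase Igtp (adjusted p = 0.010) among them. Igtp had 8, 0, 2 and 14 UMIs in NestinCre EAE and 0 in every other sample. It thus entered that fit only through the group where it was high, and its p-value is no support for a difference. The same edgeR fit gave Ttn, led by single nuclei, an adjusted p of 3.5e-12. Adjusted p-values of this fit are therefore given as a check of the filter only. Iigp1, another interferon-induced GTPase, was 1.72 ± 0.62 with an adjusted p of 0.67 in that fit. The edgeR refits by class also kept every gene of at least 1 count, so passing or not in them is likewise a check only. In the nuclei with neither, that refit gave Ttn an adjusted p of 2.2e-09. H2-K1 passed in the Hox nuclei (4.52, adjusted p = 9.3e-04) and in those with neither (3.56, adjusted p = 0.018). It did not pass in the Grm2-without-Hox nuclei (2.05, adjusted p = 0.92). B2m passed in none of them (Hox 1.58, adjusted p = 0.57; neither 2.49, adjusted p = 0.14; Grm2-without-Hox 1.10, adjusted p = 0.92). The interval of the H2-K1 difference in the Grm2-without-Hox nuclei (-0.72 to 4.83) contained its values in both other classes. Of those 192 nuclei over all samples, 7 had an H2-K1 UMI, so this fit could not show that the difference was absent there. Whether the classes differed was not tested.

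H2-K1 and B2m also stood apart by genotype in the nuclei around the set. In all other passing nuclei H2-K1 stood at 2.67 to 8.19 CPM in fl EAE and 22.3 to 76.3 CPM in NestinCre EAE, and B2m at 6.70 to 16.02 and 31.5 to 91.2 CPM. The part of RNA from other cells in the values of the Lgi2-selected nuclei was not tested; defining microglial markers were not at 0 in every sample (Csf1r 0 to 7 UMIs, Ptprc 0 to 6 UMIs) and their highest CPM were in NestinCre EAE 1.

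**Figure D3:**
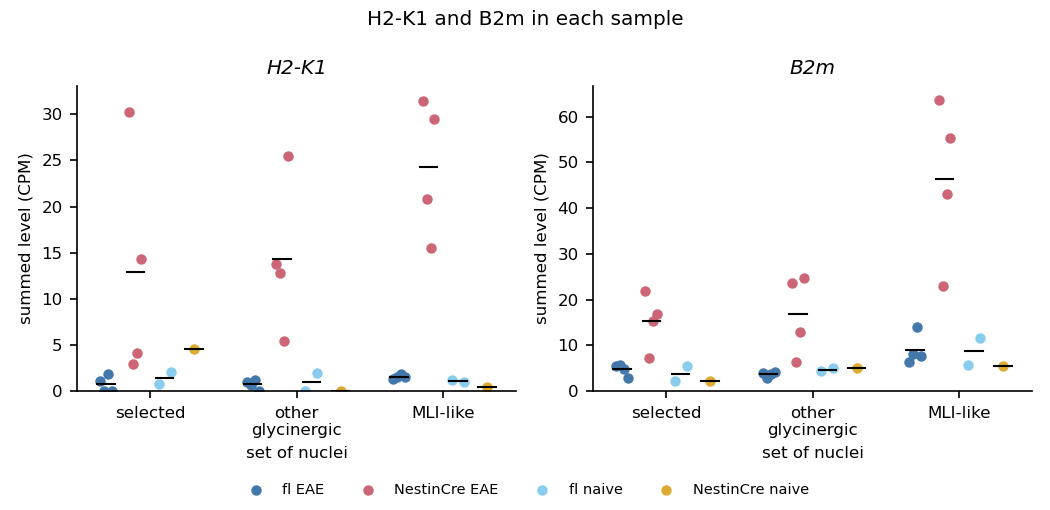
Summed level (CPM) of H2-K1 and B2m in the Lgi2-selected ("selected"), other glycinergic and MLI-like nuclei; each point is a sample, coloured by group, and each short line is the group mean. In all 3 sets every NestinCre EAE point lies above every fl EAE point for each gene, and in the selected nuclei B2m runs from 7.26 to 21.8 CPM in NestinCre EAE and from 2.88 to 5.72 CPM in fl EAE.

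Other genes with small p-values did not pass with the filter on low counts, and some rested on single nuclei. Ttn, the giant muscle protein titin, stood at 12.0, 6.86, 22.9 and 5.19 CPM in fl EAE and 33.9, 31.9, 77.5 and 32.9 CPM in NestinCre EAE (log2 difference 1.87 ± 0.33, adjusted p = 0.15). Between 51.1 and 75.0% of its UMIs in each NestinCre EAE sample were in 1 nucleus. Mid1 (log2 difference 1.32, adjusted p = 0.71), Tmem200a (-1.16, adjusted p = 0.68) and Slit2 (0.52, adjusted p = 1) also had p-values among the 5 smallest. With every gene of at least 1 count kept, edgeR called Ttn (adjusted p = 3.5e-12), Tmem200a (adjusted p = 0.0021) and Slit2 (adjusted p = 0.0062). Slit2, the leading gene of the Hox nuclei, was at 238.3 to 315.8 CPM in fl EAE and 339.6 to 458.8 CPM in NestinCre EAE.

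The gene groups described above for the set showed no call with genotype in EAE. Gad1, Gad2, Slc6a5 and Grm2 among them belong to the selection rule, so their lack of a call cannot be read as a result. None of the tested members of the transmitter handling (8), metabotropic (7) and ionotropic (17) glutamate receptor, GABA-A and glycine receptor (15), pacemaker and firing channel (28), synaptic adhesion (15), neuromodulator receptor (10), neuropeptide (4) or transcription factor (17) lists passed, with median log2 differences of 0.14, -0.14, -0.059, 0.071, 0.060, -0.0042, -0.067, -0.14 and -0.0091. The same held for the 21 tested of the neuronal genes that the study had chosen on these samples (median -0.016). The study named those genes in granule cells and other neurons from tests across single nuclei. For some, it also reported differences on sums per mouse in granule cells and molecular layer interneurons. The sums here are over other nuclei and do not repeat those tests. The 6 glucocorticoid-responsive genes tested all had positive differences, with a median of 0.29 and a lowest value of 0.044. At unadjusted p under 0.05 their member Zbtb16 (0.54), Abat (0.22) and the sodium channel Scn3a (0.33) were higher, and Grm8 (-0.27), Gabrg3 (-0.25), Lgi1 (-0.28) and Hsp90ab1 (-0.38) were lower, each with an adjusted p of 1.

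The third comparison set EAE against naive samples in 10441 genes, and 0 passed (0%). There were 538 genes at an unadjusted p under 0.05 (282 higher and 256 lower in EAE), DESeq2 called 0, and the smallest adjusted p was 0.91. With run in the model, the contrast of EAE and naive samples came from run 2 alone. That run held 1 fl EAE, 1 NestinCre EAE and 1 naive sample, fl naive 2. The other naive samples shared no run with an EAE sample. The naive side of the log2 differences below was therefore fl naive 2 alone. Nxpe4 had the smallest p (log2 difference -0.95 ± 0.21), with 73.2, 77.8, 93.0 and 64.6 CPM in fl EAE, 97.0, 91.5, 82.6 and 85.2 CPM in NestinCre EAE and 134.2, 97.1 and 94.3 CPM in the naive samples, which overlapped. Within run 2, Nxpe4 stood at 64.6 and 85.2 CPM in the EAE samples and 134.2 CPM in fl naive 2. The mitochondrial ribosomal RNA mt-Rnr2 followed at -0.82 ± 0.19, with 98.1 to 175.4 CPM in EAE and 167.9 to 284.0 CPM in naive samples. Fbxo16 (-1.51), Pi4kb (-0.85) and the transcription factor Sox5 (-1.09) completed the 5 smallest p-values, each with an adjusted p of 0.91.

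These gene groups showed no call with disease either, where the same limit holds for Gad1, Gad2, Slc6a5 and Grm2. The naive side of their log2 differences was likewise fl naive 2 alone. None of 8 transmitter handling, 7 metabotropic and 17 ionotropic glutamate receptor or 29 channel genes passed, and their medians ran from -0.056 to 0.063, against 0.0059 over all genes. The 7 glucocorticoid-responsive genes tested had a median of 0.43 with 6 positive, and the 8 heat shock and unfolded protein genes a median of 0.38 with 7 positive. All 5 oligodendrocyte markers tested were lower in EAE (median -0.73, none passing), beside the higher sum of that list in the naive samples (241.9 to 258.0 CPM against 117.1 to 222.2 CPM in EAE). The part of oligodendrocyte RNA in the other differences was not tested.

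In the Grm2-without-Hox nuclei alone, a choice made after the data were seen, edgeR called 20 of 4632 genes between EAE and naive samples, 17 of them lower in EAE. The naive side of this contrast was again fl naive 2 alone. That sample was the highest of the 11 for 13 of these genes and the lowest for 3. Without fl EAE 4 the count was 0 and without NestinCre EAE 4 it was 5, while DESeq2 called 4.

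The fourth comparison asked whether the genotype difference was itself different in EAE and in naive mice. The naive NestinCre arm was 1 sample that was assumed to vary like the others. With run in the model, the naive genotype difference rested on NestinCre naive 2 against fl naive 3, the only samples of run 3. Of 11479 genes, 5 passed (0.0436%), with 565 at an unadjusted p under 0.05 and 3 called by DESeq2. Single nuclei of 2 naive libraries held a large share of the UMIs behind them. Car8, a Purkinje cell gene, stood at 6.87 to 21.9 CPM in fl EAE, 8.16 to 13.1 CPM in NestinCre EAE, 6.60 CPM in fl naive 2, 12.7 CPM in NestinCre naive 2 and 257.7 CPM in fl naive 3. Its interaction was 4.20 ± 0.59 on the log2 scale (adjusted p = 0.0042).

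In fl naive 3 the UMIs of Car8 came almost wholly from 2 nuclei with 244 and 118 UMIs of it, which also held 29 and 18 UMIs of the Purkinje cell marker Pcp2 and were not in the share marked by the doublet caller. The calcium release channel gene Itpr1, also abundant in Purkinje cells (2.07, adjusted p = 0.0042), and Arhgef33 (2.502, adjusted p = 0.0042) had 73.2 and 69.6% of their UMIs in fl naive 3 in 1 nucleus. Pacs1 (-1.79 ± 0.26, adjusted p = 0.0042) and the thioredoxin reductase Txnrd1 (-2.03 ± 0.34, adjusted p = 0.029) had 109 of 232 and 61 of 87 UMIs of NestinCre naive 2 in 1 nucleus. Without the 3 nuclei of 10 or more Car8 UMIs, 1 gene (Pacs1) passed and the value of Itpr1 was -0.14. Those 3 nuclei came from fl EAE 1 and fl naive 3, so the 109 Pacs1 UMIs and 61 Txnrd1 UMIs in single nuclei of NestinCre naive 2 stayed in. Leaving out the 3 nuclei could therefore not bear on the single nuclei behind Pacs1 and Txnrd1, though Txnrd1 no longer passed. Each of the interaction calls thus came with most or about 1 in 2 of a library's UMIs in 1 nucleus.

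**Figure D4:**
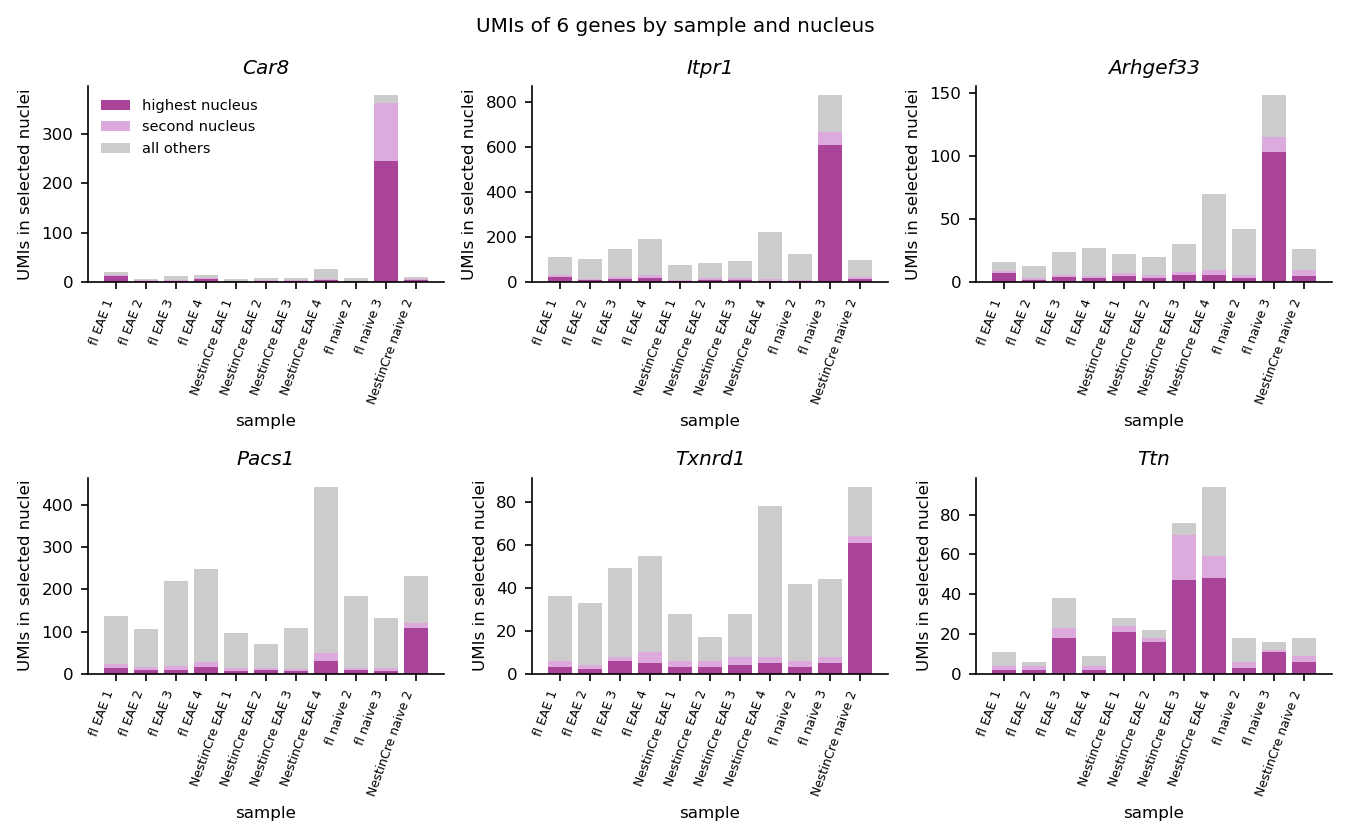
UMIs of 6 genes summed over the Lgi2-selected nuclei of each sample, with the UMIs of the highest nucleus (dark), the second (light) and all others (grey) stacked. In fl naive 3, 2 nuclei hold nearly all UMIs of Car8 and 1 holds most of those of Itpr1 and Arhgef33; in NestinCre naive 2, 1 nucleus holds 61 of 87 UMIs of Txnrd1; Ttn is led by 1 nucleus in each NestinCre EAE sample.

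The last comparisons asked whether the genotype difference in EAE was particular to these nuclei. Against the MLI-like nuclei of the same mice, 3 of 11869 genes passed (0.0253%), with 467 at an unadjusted p under 0.05 and 3 called by DESeq2. The chemokine gene Cxcl10 differed by -6.76 ± 1.07 (adjusted p = 0.037). In MLI-like nuclei it stood at 0, 0, 0.468 and 0 CPM in fl EAE and 7.56, 9.05, 8.15 and 7.13 CPM in NestinCre EAE, where 16 of the 21 UMIs of NestinCre EAE 4 were in 1 nucleus. In the Lgi2-selected nuclei it stood at 1.09, 0, 18.7 and 0 CPM in fl EAE and 6.06, 0, 2.04 and 0.701 CPM in NestinCre EAE. Of the 31 UMIs behind the 18.7 CPM of fl EAE 3, 29 were in 1 nucleus, and without that sample the difference was -4.20 with an adjusted p of 1.0. Cxcl10 entered this comparison only through the MLI-like nuclei of NestinCre EAE, where it was high, so its p-value is no support for a difference.

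Gli3, a transcription factor of hedgehog signalling (4.05 ± 0.63, adjusted p = 0.037), and Ttn (2.62 ± 0.45, adjusted p = 0.039) were the other genes that passed. Gli3 stood at 1.15 to 9.66 CPM in fl EAE and 3.64 to 37.8 CPM in NestinCre EAE in the Lgi2-selected nuclei, where 2 nuclei held all 26 UMIs of the highest sample. In the MLI-like nuclei it stood at 5.12, 6.14, 10.3 and 2.97 CPM in fl EAE and 0.63, 2.78, 0 and 0.339 CPM in NestinCre EAE, so both sides entered the difference. Ttn in the MLI-like nuclei alone was -0.80 on the log2 scale. Within the MLI-like nuclei alone 7 of 11146 genes passed, Cxcl10, H2-K1, B2m, Nlrc5, Iigp1, Cd74 and Cd52, all higher in NestinCre EAE. In fl EAE, Cxcl10 had 1 UMI, in replicate 3, and H2-K1 had 2, 3, 4 and 5 UMIs. Cxcl10 and H2-K1 thus entered that fit only through the group where they were high, and their p-values are no support for a difference. How the others of these genes entered was not examined.

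Against other glycinergic nuclei, where Slit2, Glra1 and Kcnc2 stood at 413.2, 251.9 and 456.2 CPM, 1 of 10487 genes passed (0.00954%), with 422 at an unadjusted p under 0.05 and the same gene called by DESeq2. Csgalnact1, an enzyme of chondroitin sulfate synthesis, stood at 51.4, 36.6, 53.1 and 64.0 CPM in fl EAE and 33.9, 37.8, 12.2 and 52.2 CPM in NestinCre EAE in the Lgi2-selected nuclei. In other glycinergic nuclei it stood at 33.8, 32.8, 33.3 and 35.7 CPM in fl EAE and 61.0, 75.4, 50.8 and 81.5 CPM in NestinCre EAE. The groups overlapped in the former and not in the latter, and the difference was -1.52 ± 0.24 (adjusted p = 0.033). Csgalnact1 stood at 5.38 CPM in the Grm2-without-Hox and 64.5 CPM in the Hox nuclei, and the part of the class proportions in its level was not tested. In fl EAE 4, which had its highest value in the set, 51 of 111 UMIs (45.95%) were in 1 nucleus. With fl EAE 1, 3 or 4 or NestinCre EAE 1 or 2 left out, its difference stayed between -1.53 and -1.42 and no longer passed.

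No metabotropic glutamate receptor or transmitter handling gene passed in either comparison. Among them, Grm2, Slc6a5, Gad1 and Gad2 were used to choose the nuclei, so their lack of a call cannot be read as a result.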

How the data were processed

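Single nuclei of 11 samples were sequenced with 10x Genomics 3' chemistry. The authors deposited a table of raw UMI counts per gene and barcode for each sample, made with Cell Ranger against GRCm39 with intron reads included; the file headers name version 7.0.0 for run 1 and 6.0.2 for runs 2 and 3, so a difference between versions cannot be told apart from the run. The counts were used as deposited, with no correction for free RNA and with no nuclei removed as doublets.

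The members and gene lists were chosen with earlier results of these data known, and the split by Grm2 and Hox UMIs after the data were seen. Counts were summed per sample over the selected, MLI-like and other glycinergic nuclei. MLI-like nuclei had at least 2 UMIs of Sorcs3 or Nxph1, a UMI of Lypd6 or Prkcd and of Gad1 or Gad2, and none of Slc6a5 or Lgi2. Other glycinergic nuclei had at least 2 UMIs of Slc6a5, a stricter limit than in the rule, and none of Lgi2, and Gad1 or Gad2 was not required. Both sets passed the first limits and the rule's limits on Slc17a6, Mog, Mag and granule cell genes. Sums were tested with edgeR 4.0.16 (quasi-likelihood test, TMM scaling, its filter on low counts, run as a covariate) with Benjamini-Hochberg adjustment over all genes tested and a threshold of 0.05, and with DESeq2 1.42.0 in R 4.3.3. Intervals of log2 differences are 95%. Shares were compared with two-sided exact permutation tests. The scripts were tested on simulated data. The study's description gives 4 male mice per genotype in EAE, which matches 1 mouse per EAE sample, though the labels do not tie samples to mice. Binomial intervals and floors cover counting error only.

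Genes were named by these rules: the genes of the selection rule; Il12rb2 and Il12rb1; list members that passed and up to 6 others per list; up to 10 genes that passed per comparison in each direction, or with fewer than 3 the 5 smallest p-values; the 20 leading identity genes and the 10 leading against each other class. The leading genes of the Grm2 and Hox classes, and the lower-ranked list members named with their classes, were picked after their values were seen. Coordinates are from GENCODE vM39 (25613 of 25827 gene IDs matched). Alternatives were other filters, scalings, covariates, selections and left-out samples. Some genes of the lists are not reported here.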

Additional observations from a re-analysis of the deposited data

Results flagged for a closer look

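In groups of 4, a sample far from the other 3 was found in 8 of the 62 groups looked at. Chance alone gives about 1 in 20, but most of the genes looked at were named for small p-values and 1 had a single UMI, so the count cannot be read against that. In fl EAE, replicate 3 was far above the others for Cxcl10 (18.7 CPM), Npsr1 (14.5 CPM) and Iigp1 (4.83 CPM), replicate 4 was far off for Pi4kb (46.7 CPM) and replicate 1 for Car8 (21.9 CPM). In NestinCre EAE, replicate 3 was far above the others for Ttn (77.5 CPM) and far off for Sox5 (105.0 CPM), and replicate 4 held the single UMI of Il12rb1 (0.351 CPM).

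The interaction term of genotype and EAE, in which the naive NestinCre arm was 1 sample, passed for Car8 (4.20), Arhgef33 (2.502), Itpr1 (2.07), Pacs1 (-1.79) and Txnrd1 (-2.03, all log2). In each case 47.0% or more of the UMIs of 1 naive library came from 1 nucleus. Without 3 nuclei rich in Car8, the calls other than Pacs1 were lost. Those nuclei came from fl EAE 1 and fl naive 3, so this could not bear on the single nuclei of NestinCre naive 2 behind Pacs1 and Txnrd1. The genotype difference in EAE passed as unlike in the Lgi2-selected and the MLI-like nuclei for Cxcl10 (-6.76), Gli3 (4.05) and Ttn (2.62). Against other glycinergic nuclei it passed for Csgalnact1 (-1.52). None of these passed within run 1, and Cxcl10 entered only through the group where it was high. In the Lgi2-selected nuclei, 1 nucleus held 29 of 31 Cxcl10 UMIs in fl EAE 3 and 51 of 111 Csgalnact1 UMIs in fl EAE 4. In NestinCre EAE 4, 1 nucleus held 18 of 25 Gli3 UMIs and 1 held 48 of 94 Ttn UMIs.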

How the results depend on the processing

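The count of genes called between genotypes in EAE (0) became 1 with DESeq2, 21 without the filter on low counts, 1 with at least 3 Lgi2 UMIs (Ttn), 5 in nuclei under 6000 UMIs, where 292 genes could be tested, and 2 with a replicate block in place of run (Ttn among them). It ranged from 0 to 3 with 1 sample left out, reaching 3 without fl EAE 3 and 1 when NestinCre EAE 2 was omitted. Deviations of same-numbered samples of the genotypes had correlations of -0.015, 0.034, 0.089 and 0.069, and the best match was the same number for 3 of 4. The number 4 was assigned here and run was not removed from the deviations, so these values do not settle whether samples were paired. With the replicate block the share of nuclei gave p = 1 and the Hox share p = 0.25 (exact sign flips over 4 pairs).

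Between EAE and naive samples the count (0) became 13 without the filter, 15 without run, 20 in Grm2-without-Hox nuclei and 0 to 3 with 1 sample left out (3 without fl EAE 4). The interaction count (5) became 3 with DESeq2, 28 without the filter, 0 without run, 1 with at least 3 Lgi2 UMIs, 3 under 6000 UMIs, 2 in Grm2-without-Hox and 1 in Hox nuclei, 1 without nuclei of 10 or more Car8 UMIs, and 4 to 6 with 1 sample left out. Itpr1 reversed to -0.16 with at least 3 Lgi2 UMIs, -0.51 in Grm2-without-Hox nuclei and -0.14 without nuclei rich in Car8. The count against MLI-like nuclei (3) became 16 without the filter, 0 within run 1 and 0 to 2 with 1 sample left out (0 without fl EAE 1, 2 or 4 or NestinCre EAE 2, 3 or 4). That against other glycinergic nuclei (1) became 12, 0 and 0 to 2 (0 without fl EAE 1 or 4 or NestinCre EAE 1 or 2, 2 without NestinCre EAE 3).

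The genotype difference in share (0.056 percentage points) reversed to -0.050 over nuclei low in granule genes, -0.0037 after thinning to 1500 UMIs, -0.012 without Hox nuclei, -0.022 in Grm2-without-Hox nuclei and -0.069 within run 1, and ranged from -0.043 to 0.122 with 1 sample left out. The EAE difference (-0.0013) reversed to 0.083 over nuclei low in granule genes, 0.00064 after thinning, 0.043 with at least 3 Lgi2 UMIs and 0.0033 within run 2, and ranged from -0.084 to 0.051. Except where stated, the cause was not tested. For named genes, 313 repeats gave the same call, 17 became stronger, 57 weaker and 3 reversed. Comparisons with naive samples could not be fitted without fl naive 2, nor the interaction without fl naive 3 or NestinCre naive 2. The alternatives on Grm2, Hox and Car8 nuclei were chosen after seeing the data.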
